A study of Mus musculus with 6 samples.

Results

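The genes of the cytosolic ribosomal proteins were examined in fetal livers of mouse embryos that lack the miR-144/451 locus. Members were the rows of the deposited gene count table whose symbol is exactly Rpl or Rps followed by a number and at most a single ending a, x or l, together with Rplp0, Rplp1, Rplp2 and Rpsa. Pseudogene symbols ending in -ps and the Rps6k kinases were not taken. The rule used symbols and no measured value, and it gave 81 genes of the 34542 in the table: 46 large-subunit (Rpl) genes, 3 stalk genes (Rplp0, Rplp1 and Rplp2) and 32 small-subunit genes (Rps and Rpsa).

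The libraries were made from polyadenylated RNA, each from a preparation of 5 × 1000000 fetal liver cells. The 3 knockout (KO) libraries, numbered 4 to 6, came from embryos without the miR-144/451 locus, and the 3 wild-type (WT) libraries, numbered 1 to 3, from embryos with it. All were of the C57BL/6J strain, and the labels name no embryonic age, no sex and no other allele or treatment. They do not say whether a library is 1 embryo or a pool, so a p-value here measures the spread between these libraries. RNA came from whole fetal liver cells with no sort named, so the libraries hold erythroblasts, hepatocytes and macrophages together. In such bulk samples, fewer cells of a type and less RNA per cell cannot be told apart.

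Totals of the deposited counts, which hold no globin and no mitochondrial genes, were 44700229, 41021313 and 40392139 in KO libraries 4, 5 and 6, against 36082084, 34839659 and 24659978 in WT libraries 1, 2 and 3. The host row of miR-451, Mir451, had 3, 2 and 4 counts in the KO libraries, against 323, 446 and 418 in the WT libraries, and Mir144 had 1, 1 and 0 counts, against 51, 47 and 29. A list of 20 hepatocyte genes took 1.42%, 2.18% and 4.97% of the counts in KO libraries 4, 5 and 6, and 1.45%, 5.99% and 0.901% in WT libraries 1, 2 and 3. WT replicate 2 and KO replicate 6 therefore held the most hepatocyte RNA, and both groups contained such a library. The mean log2 level of 14 erythroid genes was 10.27, 10.37 and 10.19 in the KO libraries, below all of the 10.93, 10.48 and 10.80 in the WT libraries (exact permutation test, two-sided p = 0.1, the smallest that 3 against 3 allows). That of 12 macrophage genes was 4.99, 5.20 and 5.46 in the KO libraries, within the range of the 5.08, 5.96 and 4.77 in the WT libraries.

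A ribosome is built from a large and a small subunit, each a core of ribosomal RNA carrying many proteins. Most of these proteins are small, basic and needed in equal number. The stalk on the large subunit recruits the translation factors. The mRNAs of these proteins begin with a terminal oligopyrimidine (TOP) stretch through which mTOR signalling and LARP1 set their translation together, a control that does not have to change the mRNA level. Red cell precursors make ribosomes in large amounts and lose them as reticulocytes mature, and in humans the loss of a single copy of certain ribosomal protein genes causes Diamond-Blackfan anaemia, a failure of red cell formation. The miR-144/451 locus is transcribed in erythroblasts, and miR-451 is unusual in being cut by AGO2 rather than Dicer.

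The mature microRNAs of the deleted locus are shown because their seeds, bases 2 to 8, in capitals, define the matches that were searched in the members. The sequences are RefSeq's, on build GRCm38.p6, at chr11:78073186-78073207 for miR-451a, chr11:78073047-78073066 for miR-144-3p and chr11:78073010-78073032 for miR-144-5p, all on the plus strand. No seed is shared between them.
mmu-miR-451a: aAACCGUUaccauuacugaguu
mmu-miR-144-3p: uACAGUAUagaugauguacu
mmu-miR-144-5p: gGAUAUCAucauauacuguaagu

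The reverse complements of these seeds, AACGGTT for miR-451a, ATACTGT for miR-144-3p and TGATATC for miR-144-5p, were searched on the transcript strand of the annotated 3′ UTR in GENCODE M21, with 1 transcript per gene. The miR-451a match was in 0 of the 80 members with a 3′ UTR, against 1.45% of 19716 protein-coding genes, and the miR-144-5p match was likewise in 0 of 80, against 4.06%. The miR-144-3p match was in 2 of 80 members (2.5%), against 8.68% of protein-coding genes, and those members were Rpl27a and Rpl37a, both large-subunit genes. With every annotated transcript searched, Rps15a was added. The members' 3′ UTRs had a median of 56.5 bases, against 592 for all protein-coding genes, so there was less sequence in which a match could fall. A match is a run of letters and was not tested as a binding site. The windows below, on build GRCm38 and the plus strand, lie at chr7:109522255-109522281 in Rpl27a and chr1:72713697-72713723 in Rpl37a, with the match in capitals.
Rpl27a: ctggttgggaATACTGTagaaccagag
Rpl37a: gttttgagacATACTGTgtgaccctgg

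Neither gene with a miR-144-3p match was called different between the groups. Rpl27a had 382, 388 and 369 CPM (counts per 1000000 counts of the library, its size scaled by edgeR's TMM method) in the KO libraries, against 395, 319 and 386 CPM in the WT libraries, and its log2 change, KO over WT, was 0.05 (SE 0.11, adjusted p = 0.943, edgeR quasi-likelihood test with Benjamini-Hochberg adjustment over all 15105 genes tested). Rpl37a had 293, 300 and 294 CPM in the KO libraries, against 294, 263 and 281 CPM in the WT libraries (log2 change 0.08, SE 0.08, adjusted p = 0.739 by edgeR). In both genes the KO values lay close together and WT replicate 2 was the lowest of all.

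Start-site sequence is shown for the members with the largest estimated changes in either direction that have a RefSeq promoter entry, since the TOP stretch begins at the first transcribed base. Each window runs from 15 bases before to 15 bases from the RefSeq start on GRCm38.p6, and capitals mark the longest run of C and T, of at least 5 bases, that touches the 5 bases on either side of the start. The transcript strand alone was searched. The first 2 of the members below had the larger decreases and the last 5 the larger increases, and Rps29, Rplp1 and Rpl21, which belong to the same set, had no entry.
Rps15a, chr7:118116133-118116162, minus strand: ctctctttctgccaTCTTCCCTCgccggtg
Rpsa, chr9:120127751-120127780, plus strand: gtgggttatttaaggacgtcatttccggcc
Rps2, chr17:24720048-24720077, plus strand: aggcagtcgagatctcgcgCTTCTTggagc
Rpl39l, chr16:10170213-10170242, plus strand: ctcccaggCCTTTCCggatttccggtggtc
Rpl31, chr1:39367836-39367865, plus strand: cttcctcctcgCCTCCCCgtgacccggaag
Rpl18, chr7:45718056-45718085, plus strand: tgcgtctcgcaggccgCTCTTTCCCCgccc
Rpl13, chr8:123102335-123102364, plus strand: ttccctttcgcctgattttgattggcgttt

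Such a run of at least 5 bases stood at or beside the annotated start of 34 of the 61 members with an entry (55.7%), against 35.1% of 27025 RefSeq genes. One of at least 8 bases stood there in 23 of 61 (37.7%), against 11%. Windows without a run, such as those of Rpsa and Rpl13, say only that the annotated start is not flanked by these letters. Among the printed members with estimated decreases, Rps15a had a run and Rpsa had none. Among those with estimated increases, Rps2, Rpl39l, Rpl31 and Rpl18 had a run and Rpl13 had none. The run of Rpl39l ends before the annotated start, and those of Rps2 and Rpl18 begin after it. A marked run is therefore not always a stretch that begins at the first annotated base.

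No ribosomal protein gene was called higher or lower in KO than in WT livers. Of the 81 members, 79 passed the filter on low counts, and of these edgeR found 0 higher and 0 lower in KO at an adjusted p of 0.05, where 1.83% of all 15105 tested genes rose and 1.45% fell. Under an unadjusted threshold of 0.05 the count was 0 of 79, against 16.6% of all tested genes, and DESeq2 and limma-voom also called 0, with 1 and 0 members under an unadjusted 0.05. The KO and WT libraries overlapped for all 79 members, whereas they did not overlap for 22.7% of all tested genes. The smallest adjusted p was 0.305 (edgeR), that of Rps29.

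The estimated changes were small in both directions. The members had a median log2 change of -0.03, and all tested genes one of -0.03. The 25th and 75th percentiles of the members lay at -0.09 and 0.03, against -0.20 and 0.13 over all tested genes, and 5% and 95% of the members lay below -0.19 and 0.10, against -0.57 and 0.46. A change above 0 was estimated for 27 members and below 0 for 52, so 34.2% were above 0, against 44.9% of all tested genes. Large-subunit genes had a median of -0.02 with 19 of 44 above 0, stalk genes -0.05 with 1 of 3, and small-subunit genes -0.05 with 7 of 32.

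The changes were bounded most closely in the 78 tested members that averaged 10 CPM or more. The 95% interval of edgeR's log2 change had a median half-width of 0.26 and lay within ±0.5, a 1.41-fold change, for 72 of 78 and within ±0.75, a 1.68-fold change, for all 78. The lowest bound was -0.61 (Rps29) and the highest 0.63 (Rps2). The changes were unrelated to transcript length across these genes (Pearson 0.06, Spearman 0.05), given as a description since the genes share libraries.

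**Figure D1:**
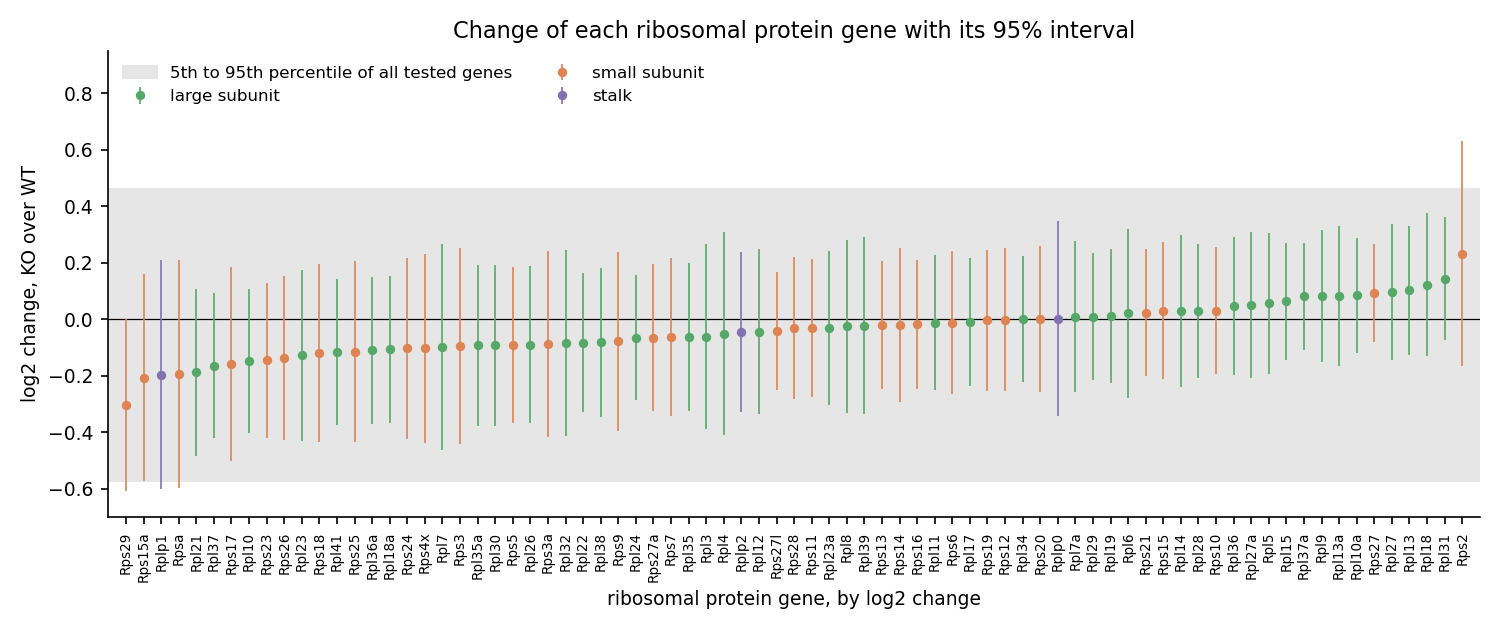
Log2 change, KO over WT, of 77 of the 78 ribosomal protein genes with at least 10 CPM, in order of size, with edgeR's 95% interval as a line and the subunit as colour. The grey band spans the 5th to 95th percentile of all tested genes (-0.57 to 0.46), every point lies inside it, and the intervals reach from -0.61 (Rps29) to 0.63 (Rps2).

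The largest estimated decreases were those of Rps29, Rps15a, Rplp1, Rpsa and Rpl21. Rps29, a small zinc-binding protein of the small subunit that is mutated in some human Diamond-Blackfan families (chr12:69157722-69159186, minus strand, GRCm38), had 247, 263 and 249 CPM in the KO libraries, against 349, 258 and 330 CPM in the WT libraries. The KO values lay together at the level of WT replicate 2, and WT replicates 1 and 3 stood above all of them. Its log2 change was -0.30 (SE 0.13, 95% interval -0.61 to 0.00, adjusted p = 0.305, edgeR).

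Rps15a, a core protein of the small subunit (chr7:118104372-118116188, minus strand), had 572, 619 and 590 CPM in the KO libraries, against 789, 545 and 723 CPM in the WT libraries (log2 change -0.21, SE 0.15, adjusted p = 0.615, edgeR). Rpsa, a small-subunit protein also known as a laminin receptor precursor (chr9:120127689-120132369, plus strand), had 1956, 1949 and 1811 CPM in the KO libraries, against 2468, 1736 and 2334 CPM in the WT libraries (log2 change -0.19, SE 0.17, adjusted p = 0.689, edgeR). Rpl21, a large-subunit protein (chr5:146832890-146837032, plus strand), had 416, 431 and 406 CPM in the KO libraries, against 529, 401 and 498 CPM in the WT libraries (log2 change -0.19, SE 0.12, adjusted p = 0.551, edgeR). All 3 had the arrangement seen in Rps29, with WT replicates 1 and 3 above the KO libraries, and in these WT replicate 2 was below them.

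Whether any of these decreases was called depended on the libraries kept and on the scaling. The estimates themselves were below 0 under every setting tried, and all were lowest without WT replicate 2. Without that library, edgeR called 2 members lower, Rps29 (log2 change -0.42, adjusted p = 0.0185) and Rps15a (-0.35, adjusted p = 0.047), among 6.61% of all tested genes called lower. At the same time 27 members reached an unadjusted p under 0.05, against 25.5% of all tested genes, 66 of 79 were below 0, and the median of the members was -0.12, against 0.01 over all genes. Without WT replicate 2 and KO replicate 6 together, the libraries richest in hepatocyte RNA, Rps29 alone was called (-0.39, adjusted p = 0.0248), among 5.56% of all genes called lower. With libraries scaled to their summed ribosomal protein counts instead, an alternative chosen after seeing the data, Rps29 alone was again called (-0.25, adjusted p = 0.0309), among 4.06% of all genes called lower. Rps29 had no call under the other normalizations, tests and left-out libraries tried.

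The largest estimated increases were those of Rps2, Rpl39l, Rpl31, Rpl18 and Rpl13. Rps2, which lines the mRNA entry channel of the small subunit and is methylated by PRMT3 (chr17:24718116-24721929, plus strand), had 1450, 1557 and 1499 CPM in the KO libraries, against 1464, 1003 and 1369 CPM in the WT libraries. Only WT replicate 2 was far from the others (log2 change 0.23, SE 0.17, 95% interval -0.17 to 0.63, adjusted p = 0.602, edgeR). Without that library the mean of the WT libraries was 1417 CPM, against 1502 CPM in the KO libraries.

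Rpl31, which sits beside the exit tunnel of the large subunit (chr1:39367842-39371911, plus strand), had 268, 273 and 251 CPM in the KO libraries, against 254, 218 and 246 CPM in the WT libraries (log2 change 0.14, SE 0.09, adjusted p = 0.526, edgeR). Rpl18 had 529, 502 and 479 CPM in the KO libraries, against 493, 412 and 481 CPM in the WT libraries (log2 change 0.12, SE 0.11, adjusted p = 0.688, edgeR). Rpl13 had 470, 473 and 462 CPM in the KO libraries, against 472, 399 and 438 CPM in the WT libraries (log2 change 0.10, SE 0.09, adjusted p = 0.723, edgeR). In each the groups overlapped and WT replicate 2 was the lowest library. The annotated spans of Rps2 (with Snhg9), Rpl31 (Tbc1d8), Rpl18 (Sphk2) and Rpl13 (Gm20388) are among the 25 members' spans that overlap another gene's, and the sources used here do not say whether counting used strand.

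None of the stalk genes was called. Rplp0, the base of the stalk, averaged 2360 ± 99.2 CPM in KO and 2357 ± 283 CPM in WT (SD, n = 3 each), a log2 change of 0.00 with a 95% interval from -0.34 to 0.35. Rplp1, which with Rplp2 forms the flexible tips that contact elongation factors, had 1250, 1216 and 1096 CPM in the KO libraries, against 1507, 1063 and 1511 CPM in the WT libraries (log2 change -0.20, SE 0.17, adjusted p = 0.689, edgeR). Rplp2 averaged 508 ± 40.5 CPM in KO and 524 ± 55 CPM in WT (log2 change -0.05). For all 3, every KO library lay within the WT range and WT replicate 2 was the lowest library.

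Rps19, Rps14 and Rps6, linked to red cell disease or to mTOR signalling, had estimates close to 0. Rps29, also mutated in Diamond-Blackfan anaemia, had the largest estimated decrease of the members, as given above. Rps19, the gene most often mutated in human Diamond-Blackfan anaemia, averaged 604 ± 17.2 CPM in KO and 606 ± 54.5 CPM in WT, and its log2 change of -0.00 had a 95% interval from -0.25 to 0.25. Rps14, whose loss of a copy underlies the anaemia of a human myelodysplastic syndrome, averaged 595 ± 7 CPM in KO and 603 ± 72 CPM in WT (log2 change -0.02, interval -0.29 to 0.25). Rps6, the substrate of the S6 kinases downstream of mTOR, averaged 532 ± 14.0 CPM in KO and 536 ± 53.8 CPM in WT (log2 change -0.01, interval -0.27 to 0.24). In all 3 genes the KO libraries lay within the WT range.

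Rpl5 and Rpl11, which bind MDM2 when ribosome assembly fails and so stabilise p53, averaged 628 ± 3.91 and 380 ± 16.1 CPM in KO, against 604 ± 56.4 and 384 ± 34.4 CPM in WT (log2 changes 0.06 and -0.01). Rps3, at the mRNA entry site of the small subunit, averaged 1082 ± 42.1 CPM in KO and 1156 ± 179 CPM in WT (log2 change -0.09, interval -0.44 to 0.25). Of the 19 members mutated in human Diamond-Blackfan anaemia, 0 were called in either direction by edgeR and 0 had an unadjusted p under 0.05. Over all tested genes 1.83% were called higher and 1.45% lower, and 16.6% had an unadjusted p under 0.05. Their changes ran from -0.30 (Rps29) to 0.14 (Rpl31) with a median of -0.03, the same as over all tested genes.

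Paralogues with restricted expression were at or near the limit of detection, apart from Rps27l. Rpl10l, an intronless copy of Rpl10 known from male germ cells, had 0 counts in all 6 libraries, which allows up to 0.0135 CPM over all of them. Rpl3l, a copy of Rpl3 known from striated muscle, had 1, 2 and 2 counts in the KO libraries, against 1, 2 and 4 in the WT libraries, and was not tested. Rpl39l, a copy of Rpl39 known from male germ cells, had 38, 41 and 48 counts in the KO libraries, against 37, 25 and 17 in the WT libraries. After scaling its groups overlapped (0.983 ± 0.177 CPM in KO and 0.842 ± 0.230 CPM in WT, log2 change 0.22, SE 0.28, adjusted p = 0.85 by edgeR).

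The parents of these copies were abundant. Rpl3 averaged 984 ± 41.0 CPM in KO and 1027 ± 146 CPM in WT, Rpl10 averaged 387 ± 1.28 CPM in KO and 428 ± 47.5 CPM in WT, and Rpl39 averaged 345 ± 21.5 CPM in KO and 351 ± 53.1 CPM in WT. Their log2 changes were -0.06, -0.15 and -0.02. Rps27l, a p53-inducible copy of Rps27, was well expressed, at 103 ± 5.82 CPM in KO and 106 ± 8.40 CPM in WT, and Rps27 itself at 178 ± 7.62 CPM in KO and 167 ± 6.34 CPM in WT (log2 changes -0.04 and 0.09).

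Levels differed far more between members than between groups. Per kb of an annotated transcript, the 78 members with at least 10 CPM ranged 16.6-fold, from 153 CPM per kb (Rps20) to 2552 CPM per kb (Rplp1), with a median of 672 CPM per kb. Rplp1 was followed by Rpl41, the shortest ribosomal protein, at 2079 CPM per kb, Rps24 at 1743, Rplp0 at 1737, Rpl32 at 1436 and Rps18 at 1434 CPM per kb. Rps24 and Rplp0, and likewise Rpl32 and Rps18, were closer than their spread over the libraries. At the other end, Rpl27 had 206 CPM per kb, and Rpl39l, below the 10 CPM mark, had 1.66 CPM per kb.

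**Figure D2:**
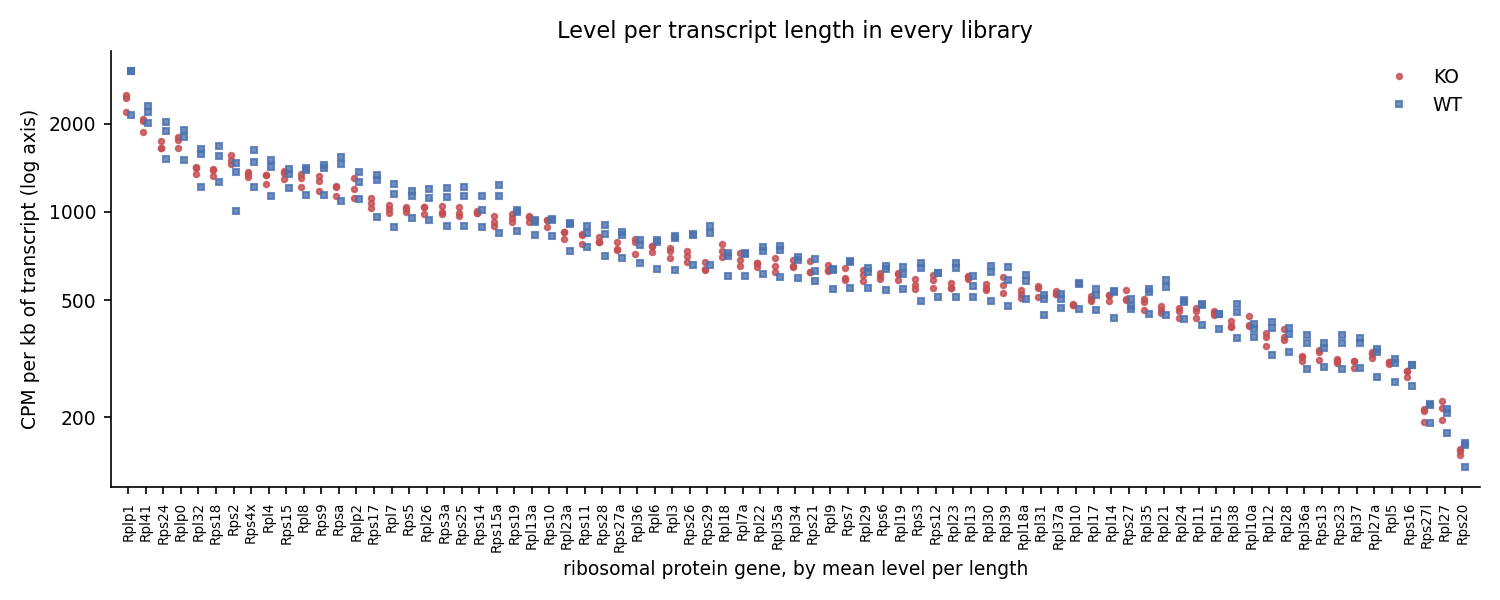
CPM per kb of transcript of 77 of the 78 members with at least 10 CPM in the KO libraries (circles) and the WT libraries (squares), on a log axis, in order of the mean. The order runs from Rplp1 (mean 2552 CPM per kb) to Rps20 (153 CPM per kb), and for 62 of the 78 genes all KO libraries lie between the highest and the lowest WT library.

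The order depends on the transcript taken as each gene's length and on counts that near-identical copies may have received. The transcript taken for Rps20 had 3706 bases, the longest among the members, against a median of 681. Rpl27 had 3 pseudogene rows in the table that together held 56.5% of the counts of gene and pseudogenes. The levels of these genes are therefore uncertain. The comparison between groups uses the same row in every library, but the share of counts on pseudogene rows also differed between libraries, as given for Rps2 below.

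The members varied together from library to library. WT replicate 2 was the lowest of the 6 libraries for 75 of the 79 tested members and WT replicate 1 the highest for 57. Among the 78 members with at least 10 CPM, KO replicate 6 was the lowest KO library for 63. The median log2 level relative to the mean over libraries was -0.01, 0.01 and -0.07 in KO libraries 4, 5 and 6, against 0.12, -0.18 and 0.09 in WT libraries 1, 2 and 3. The lowest library of each group was thus the library with the most hepatocyte RNA in that group, and its part in these levels was not tested. These lowest libraries were not particular to the members. The mean log2 level of other TOP mRNAs, listed below, was 8.937, 8.888 and 8.763 in the KO libraries, against 9.022, 8.672 and 8.989 in the WT libraries. That of ribosome biogenesis genes was 6.584, 6.365 and 6.234, against 6.421, 6.171 and 6.585. The share of all tested genes lowest in WT replicate 2 was not computed.

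For the members, the WT libraries were spread more widely than the KO libraries. The SD of the WT libraries exceeded that of the KO libraries for 77 of 78 members, with a median coefficient of variation of 3.33% in KO and 11% in WT. The highest library exceeded the lowest by a median factor of 1.07 in KO (1.01 to 1.17) and 1.23 in WT (1.08 to 1.46). For 62 of 78 members all KO libraries lay within the WT range, for 54 they lay below both WT replicates 1 and 3, and for 75 they lay above WT replicate 2. These counts are not independent, since the members share the libraries and their scaling. The same counts were not made over all tested genes, so they do not show a trait particular to the members.

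**Figure D3:**
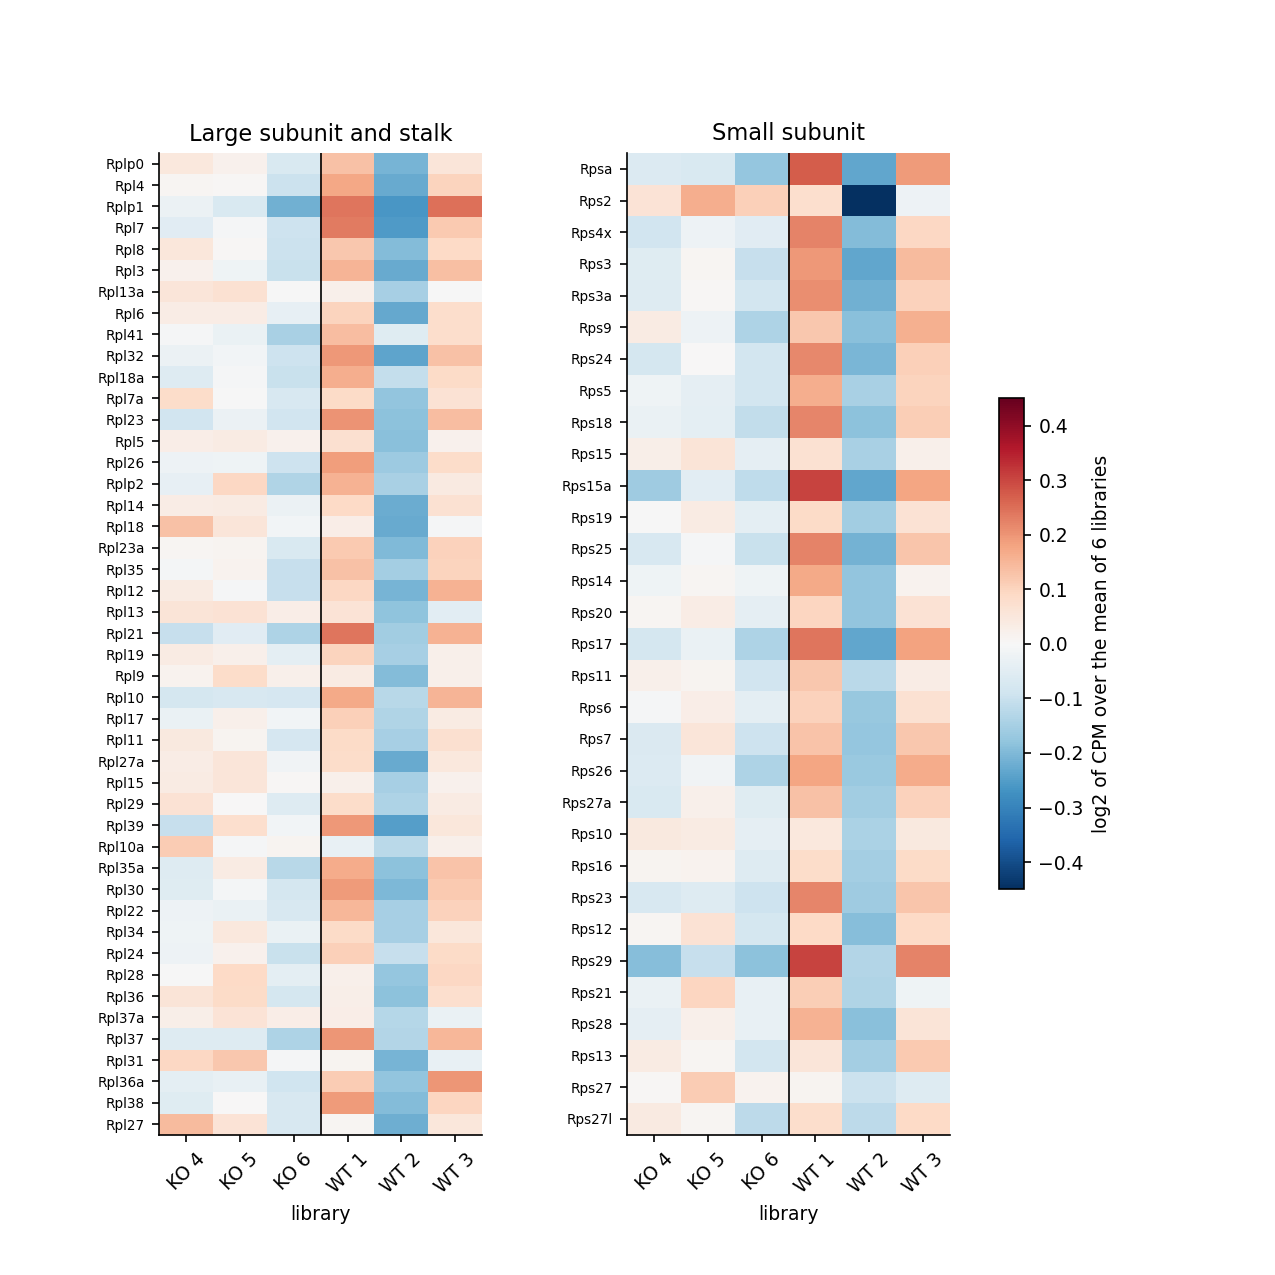
Log2 of CPM over the mean of the 6 libraries for 77 of the 78 members with at least 10 CPM, with large-subunit and stalk genes on the left and small-subunit genes on the right, each in order of level; KO libraries are the 3 left columns and WT libraries the 3 right ones in each panel. WT replicate 2 is below the mean at every gene, WT replicates 1 and 3 are mostly above it, and the KO columns are pale.

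The share of the library taken by all ribosomal protein genes overlapped between the groups. They held 4.93%, 4.86% and 4.59% of the deposited counts in KO libraries 4, 5 and 6, against 4.84%, 4.15% and 4.92% in WT libraries 1, 2 and 3, with Wilson 95% intervals of at most ±0.00853 percentage points that cover counting error only. The KO mean was 4.79% ± 0.183 and the WT mean 4.64% ± 0.421 (SD, n = 3 each), a difference of 0.158 percentage points (exact permutation test, two-sided p = 0.6, the smallest possible being 0.1). WT replicate 2 was the lowest library, and the other 5 lay between 4.59% and 4.93%.

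The sign of that difference depended on the denominator and on WT replicate 2. On TMM-scaled library sizes the members summed to 46940, 47580 and 44870 CPM in the KO libraries, against 52310, 41250 and 50310 CPM in the WT libraries, and the difference of the means was -1493 CPM (exact permutation test, p = 0.8). Without WT replicate 2 the difference in the share of all counts was -0.0835 percentage points. With the counts of the hepatocyte genes taken out of the denominator, the shares were 5.00%, 4.97% and 4.83% in the KO libraries, against 4.91%, 4.42% and 4.96% in the WT libraries (difference 0.171 percentage points, exact permutation test, p = 0.5). WT replicate 2 was the lowest under every denominator.

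**Figure D4:**
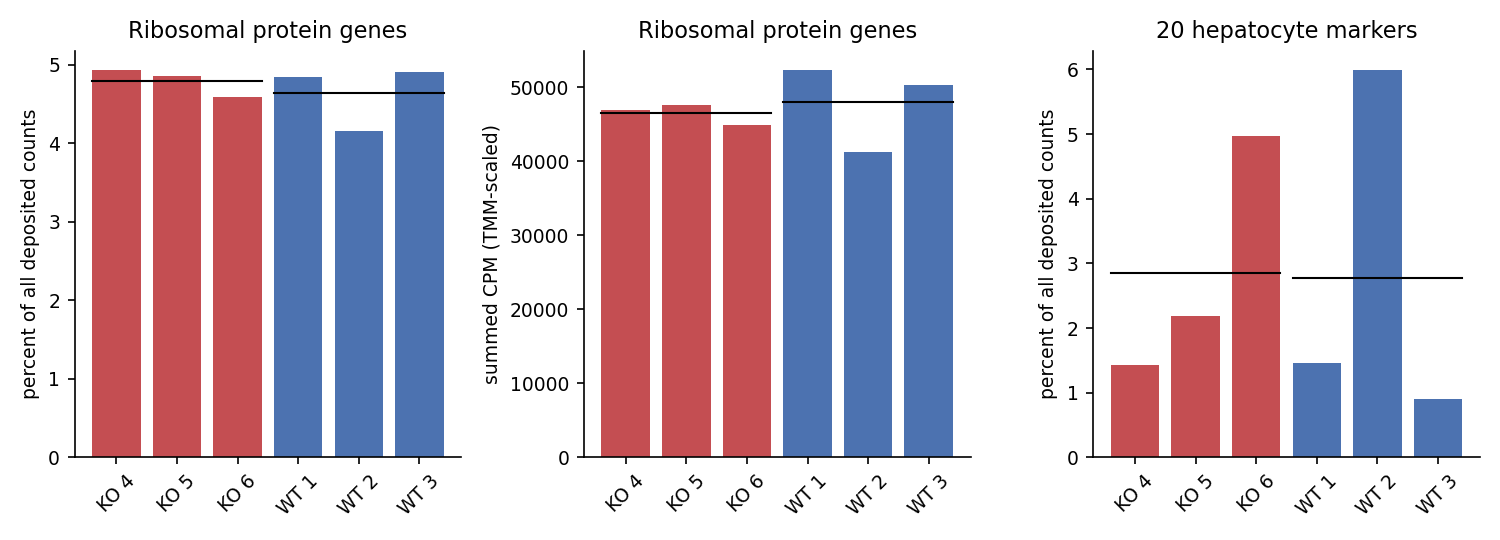
Bars give, for each library, the members' percent of all deposited counts (left), the members' summed CPM on TMM-scaled library sizes (middle) and the percent of all counts in 20 hepatocyte marker genes (right), with KO in red, WT in blue and a black line at each group's mean. WT replicate 2 is lowest in the first and middle panels (4.15% and 41250 CPM) and highest in the right one (5.99%), and KO replicate 6 (4.97% hepatocyte counts) is the lowest KO library in both.

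The balance of the subunits overlapped too. Small-subunit genes made up 42.6%, 43.2% and 43.3% of the members' counts in the KO libraries, against 43.9%, 43.0% and 43.5% in the WT libraries, which overlap (exact permutation test, p = 0.4). The 6 members with the most counts held 22.1% of the members' counts.

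Intron counts gave a second measure of the same genes, since reads in introns come largely from RNA that has not been spliced. The exon and intron table listed 78 members, without Rpl10l, Rpl9 and Rps3a. Among the 76 of these with at least 10 CPM, introns held a median of 2.22% of a member's exon and intron counts, from 0.118% (Rps3) to 16.1% (Rps12), against a median of 20.1% over all tested genes. The members' introns hold 58 annotated snoRNA genes in 30 members, and the intron share of the 29 hosts with at least 10 CPM (median 2.03%) was close to that of the other 47 (2.36%). Rps12 hosts 3 of these snoRNA genes. In Rpl3l, below 10 CPM, introns held 87.0% of the counts, at 7 to 21 intron counts a library.

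No member's intron count was called between KO and WT. Of the 77 members tested, 0 passed an adjusted p of 0.05 by edgeR, against 0.72% of 11803 tested genes, DESeq2 and limma-voom also called 0, and 1 had an unadjusted p under 0.05, against 10.8%. The groups did not overlap for 4 members, against 17.5% of all tested genes. Of these, Rps15 and Rpl18 were higher in KO (log2 changes 0.32 and 0.31) and Rpl23a and Rpl3l lower (-0.26 and -1.42). Rps15 and Rpl23a were chosen after their values were seen.

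Rpl3l was the member with the unadjusted p of 0.00792 (adjusted p = 0.222, edgeR). Its introns had 10, 7 and 9 counts in the KO libraries, against 21, 17 and 16 in the WT libraries, so that all KO values were below all WT values at a few counts each. Its gene row, at 1 to 4 counts, was too low to test.

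The members' intron changes had a median of 0.12, against 0.02 over all tested genes, with 61 of 77 above 0. KO replicate 4 was the library with the highest intron level for 47 of 76 members. The median depended on single libraries: it was -0.03, 0.15 and 0.21 when KO libraries 4, 5 and 6 were left out in turn, and 0.27, 0.04 and -0.00 when WT libraries 1, 2 and 3 were. Over all members together, introns held 3.10%, 1.75% and 2.12% of exon and intron counts in the KO libraries, against 2.16%, 2.09% and 2.58% in the WT libraries (exact permutation test, p = 0.9). The share was highest in KO replicate 4 and lowest in KO replicate 5, so the KO libraries spanned the whole WT range. Over all genes of the table the intron share also varied, from 16.9% to 23.4% between libraries, and its part in the members' share was not tested.

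The change in exons was then set against the change in introns in a single edgeR fit of 12 columns with a term for each library. Of 76 members, 0 were called by edgeR and 0 by DESeq2, and edgeR called 0% of 11100 genes. A single member, Rpl38 (log2 difference -0.41), had an unadjusted p under 0.05, against 3.16% of all tested genes. The members' median difference was -0.15, against -0.06 over all genes, with 12 of 76 above 0. This median was -0.00, -0.23 and -0.23 without KO replicates 4, 5 and 6, and -0.22, -0.12 and -0.02 without WT replicates 1, 2 and 3.

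**Figure D5:**
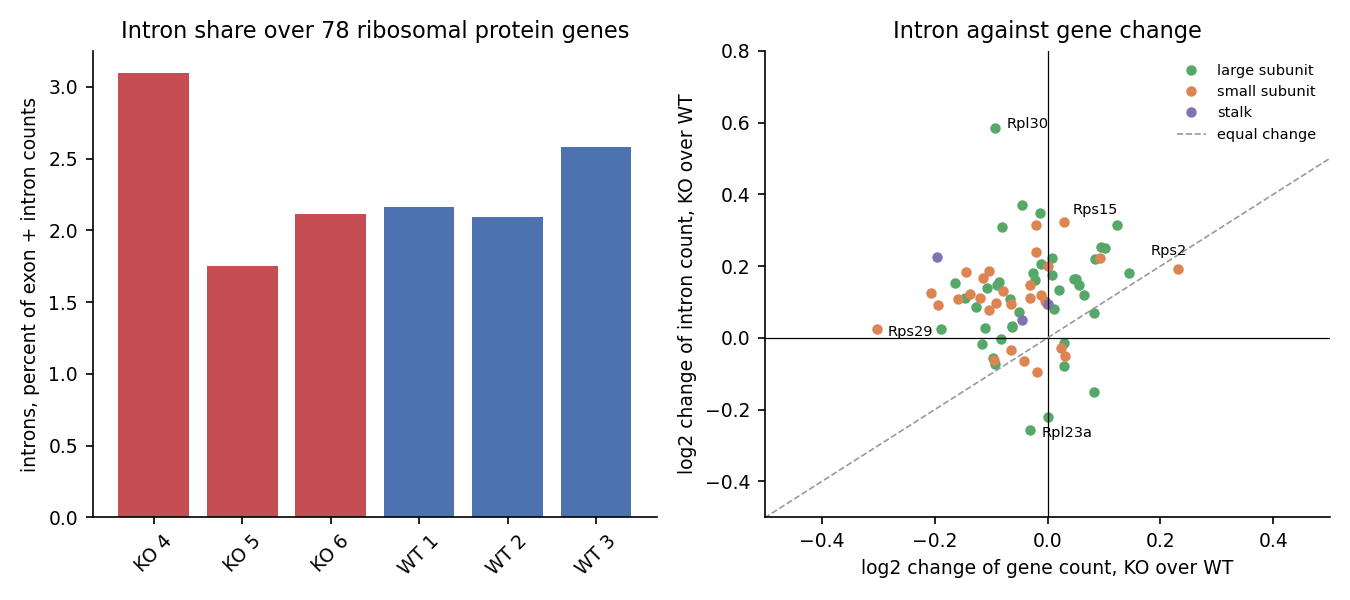
Left, introns' percent of the exon and intron counts summed over 78 members in each library, KO in red and WT in blue. Right, log2 change (KO over WT) of the intron count against that of the gene count for 75 of the 76 members, with a dashed line of equal change; KO replicate 4 has the highest intron share (3.10%) and most points lie above the horizontal line at 0, with a median of 0.12 that ran from -0.03 to 0.27 when a single library was left out.

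Counts also fell on pseudogene rows. Spliced copies of ribosomal protein mRNAs lie throughout mammalian genomes, and reads of the parent can be assigned to them. The table held 172 rows ending in -ps for 52 members, and these rows took 10.98%, 10.93% and 10.93% of the counts of members and pseudogenes in the KO libraries, against 11.25%, 11.20% and 11.04% in the WT libraries. All KO values were below all WT values, by 0.217 percentage points on average (exact permutation test, two-sided p = 0.1, the smallest possible). Single families, each a member with its -ps rows, went both ways. Of 49 with pseudogene counts, 9 had a share below all WT libraries in every KO library and 9 a share above them. Some of these shares rested on few counts, as for Rpl13a, named after its values were seen, with 4 pseudogene counts over all libraries. Rpl27 (56.5%), Rps16 (56.1%), Rps12 (52.3%) and Rpl10a (52.3%), named here after their values were seen, were the members whose pseudogene rows held over 50% of the family's counts.

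Summing each member with its -ps rows, an alternative chosen after seeing the data, gave 0 called of 52 families (smallest adjusted p 0.321, edgeR), where 5.38% of all 15016 rows tested were called, had 0 families under an unadjusted p of 0.05, and moved a log2 change by at most 0.09 (Rpl9). The family changes ran from -0.20 to 0.18. For Rps2 the pseudogene rows held 7.02%, 4.63% and 3.77% of the family in the KO libraries, against 7.73%, 11.7% and 6.44% in the WT libraries, highest in WT replicate 2, where the Rps2 row itself was lowest. Rps2 with its pseudogenes averaged 1583 ± 43.2 CPM in KO and 1396 ± 233 CPM in WT (log2 change 0.18, SE 0.12, adjusted p = 0.538, edgeR). None of the 89 pseudogene rows tested was called in either direction by edgeR, where 1.83% of all tested genes were higher and 1.45% lower, and 6 had an unadjusted p under 0.05, against 16.6% of all tested genes.

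Other genes of the ribosome and its control were not called either. Fau, whose product is cut into a ubiquitin-like protein and the small-subunit protein eS30, had 203, 205 and 196 CPM in the KO libraries, against 184, 173 and 177 CPM in the WT libraries. Its groups did not overlap and its spread was small, but the change was not called (log2 change 0.18, SE 0.07, unadjusted p = 0.0398, adjusted p = 0.27, edgeR). Rack1, a scaffold on the small subunit listed as Gnb2l1, averaged 1373 ± 30.4 CPM in KO and 1373 ± 127 CPM in WT. Of 20 other TOP mRNAs, including translation elongation factors, Fau and Gnb2l1, 0 were called, 1 (Fau) had an unadjusted p under 0.05 by edgeR, and the median was -0.03. Of 42 ribosome biogenesis genes 0 were called, with a median of -0.02 and 1 unadjusted p under 0.05 by edgeR. Over all tested genes 1.83% were called higher and 1.45% lower, so few calls would be looked for in lists of this size. An unadjusted p under 0.05 was found for 16.6% of all tested genes.

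Among 8 genes of ribosome rescue and quality control, Ltn1 was called higher and the other 7 were not called. Over all tested genes 1.83% were called higher and 1.45% lower, and the 495 calls became 12 to 1495 with 1 library left out. Ltn1, the ubiquitin ligase that marks nascent chains on stalled large subunits, had 124, 124 and 121 CPM in the KO libraries, against 85.8, 82.3 and 95.6 CPM in the WT libraries (log2 change 0.49, SE 0.08, adjusted p = 0.03, edgeR). All KO libraries were above all WT libraries, and the KO values were nearly equal. Pelo, which with Hbs1l splits stalled ribosomes and was named after its value was seen, averaged 25.5 ± 1.66 CPM in KO and 30.5 ± 3.08 CPM in WT (log2 change -0.26, adjusted p = 0.307, edgeR). Of 20 p53 target genes, listed because unassembled Rpl5 and Rpl11 stabilise p53, 0 were called in either direction and 7 had an unadjusted p under 0.05 by edgeR, where 16.6% of all tested genes did, with a median log2 change of -0.10.

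Markers of the cell types in the tissue moved as follows. Of 14 erythroid genes, 2 were lower in KO by edgeR: Tfrc, the transferrin receptor, had 2207, 2300 and 2126 CPM in the KO libraries, against 4139, 3558 and 4103 CPM in the WT libraries (log2 change -0.83, SE 0.14, adjusted p = 0.0336), and Epb4.2, a protein of the red cell membrane skeleton, had 690, 706 and 663 CPM, against 1287, 951 and 1145 CPM (log2 change -0.72, SE 0.14, adjusted p = 0.0481). Over all tested genes 1.45% were called lower and 1.83% higher. All 14 erythroid genes had estimates below 0, with a median of -0.55. An unadjusted p under 0.05 by edgeR was found for 9 of the 14, against 16.6% of all tested genes. Of the 20 hepatocyte genes and of the 12 macrophage genes 0 were called, and 0 of either list had an unadjusted p under 0.05. Beside these, the ribosomal protein genes had a median of -0.03, and the part of cell composition in their levels was not tested.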

How the data were processed

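Polyadenylated RNA of fetal liver cells was sequenced as 3 KO and 3 WT libraries on an Illumina instrument, per the labels' protocols. The submitters' processing notes name STAR, HTSeq, NCBIM37 and mm10, and how reads on several loci or on either strand were counted is not given in the sources used here. The authors deposited whole-number counts per gene, without globin and mitochondrial genes as the file name states, and a second table of exon and intron counts per gene. In that table the exon counts equalled the gene counts for all of its 15543 genes. Groups and replicate numbers came from the sample titles. A HITS-CLIP experiment named in the design text was not analysed here.

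Genes that passed edgeR's filterByExpr (minimum count 10, minimum total 15) were fitted over the 6 libraries with edgeR 4.0.16 in R 4.3.3 (TMM, quasi-likelihood test, Benjamini-Hochberg adjustment over all tested genes, adjusted p under 0.05 called). CPM are counts per 1000000 of the TMM-scaled library size. Intron counts were fitted the same way, and exon against intron change in a single fit. DESeq2 1.42.0, limma-voom (limma 3.58.1), other size factors, no filter, a hepatocyte covariate and left-out libraries were alternatives. Single values were compared by exact permutation tests. Replicates differed by far more than counting noise. The fit was checked on simulated counts.

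Named were called members, the 5 largest changes each way, the 6 highest and 3 lowest levels per length, copies ending in l with their parents, the stalk genes, Rpsa, Rps3, Rps6, Rps14, Rps19, Rpl5 and Rpl11, and of other genes Fau, Gnb2l1 and called list members. Some genes are not reported by name here. The members and lists were chosen with earlier results of these data known. Names, coordinates, UTRs and snoRNAs are GENCODE M21 on GRCm38, in which all 81 symbols matched, 1 by an older symbol. RefSeq gave start windows for 61 members.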

Additional observations from a re-analysis of the deposited data

How the results depend on the processing

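The count of 0 members called by edgeR was the same with RLE size factors, TMM without the members, DESeq2, limma-voom, no filter and a hepatocyte covariate, and 0 to 2 with 1 library left out, the 2 (Rps29 and Rps15a) arising without WT replicate 2. It was 1 (Rps29) without WT replicate 2 and KO replicate 6 together, and 1 (Rps29) under scaling to the summed ribosomal protein counts, a setting chosen after seeing the data. The members' median log2 change ran from -0.12 to 0.03 with 1 library left out. The difference in the members' share of counts, 0.158 percentage points, reversed to -0.149 on TMM-scaled library sizes (percent). With 1 library left out, the difference in the share of all counts ran from -0.0835 (without WT replicate 2, reversed) to 0.298. The members' median level relative to the mean over libraries, a ratio and not a share, differed by -0.0266 (KO minus WT). Intron and exon-against-intron calls of members were 0 under every alternative run. Over all genes, the 495 called became 804 with TMM without the members, 1307 with DESeq2, 2598 with the hepatocyte covariate, 1418 without WT replicate 2 and KO replicate 6, 1102 under scaling to the members' sum, 808 with pseudogene rows summed into the members, and 12 to 1495 with 1 library left out; the cause was not tested. No paired analysis was possible because KO libraries are numbered 4 to 6 and WT libraries 1 to 3, so the groups share no replicate number. With 3 libraries a group the exact tests cannot go below 0.1, and depth does not limit members other than Rpl10l, Rpl3l and Rpl39l.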
